A study of Homo sapiens with 4 samples.

Results

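Collagens are the triple-helical proteins of the extracellular matrix, and their genes carry symbols made of COL, a type number, A and a chain number. All protein-coding genes with such a symbol were taken, which gave 44 genes, of which 41 had rows among the 46660 gene identifiers of the expression table. The members were taken by symbol. At least 10 counts in 1 of the 4 libraries were reached by 33 of the 41 genes, and 8 stayed below 10 counts in every library. Expression of *COL6A5*, *COL9A1* and *COL10A1* was not analysed here.

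A collagen molecule is built from 3 chains, which may be copies of 1 gene product or products of different genes, so partner chains such as *COL1A1* and *COL1A2* enter 1 protein. Fibrillar collagens form the banded fibrils of connective tissue, type IV collagens the sheet of the basement membrane, type VI collagens beaded filaments, and fibril-associated collagens decorate the surface of fibrils. In the brain, collagens are found mainly around vessels and in the meninges, and glioblastoma cells can make them in culture. *FLI1*, an ETS family transcription factor whose domain binds DNA around a GGAA core, is known from fibroblasts as a repressor of *COL1A1* and *COL1A2*.

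RNA-seq of polyadenylated RNA was performed on 4 libraries from U87MG and U251MG, which are established cell lines of human glioblastoma. Each line gave 1 library of cells infected with the lentiviral control vector pGreen (control, with shControl in the titles). The other library came from cells that carried lentiviral shRNA against *FLI1* (shFLI1). The cells of all groups had been infected with polybrene and selected with puromycin, and each was a mixed stable population, not 1 clone. The design names a pair of shRNAs, and the labels do not say which one a library carries. A difference within a cell line thus rests on a single library per arm with no check by replicates. The 95% intervals of levels and fold changes below are exact Clopper-Pearson intervals that cover counting error only.

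The libraries held between 12229779 and 28891055 counts in genes, and the collagen genes together took between 0.396% and 0.571% of them. The targeted gene was lower in both knockdowns. *FLI1* had 107 counts in U87MG control, 52 in U87MG shFLI1, 216 in U251MG control and 111 in U251MG shFLI1, so that U87MG kept 25% and U251MG 30.6% of the control level. The control cells also held more *ISG15*, an interferon-stimulated gene, with a log2 fold change, shFLI1 against control, of -2.47 for U87MG and -3.79 for U251MG, and its part in the collagen values was not tested.

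*COL1A1* and *COL1A2* encode the α1 and α2 chains of type I collagen, the main fibril of skin, bone and tendon. Levels are given as CPM, the counts of a gene relative to its library's total after TMM scaling, which makes the 4 libraries comparable for 1 gene. *COL1A1* stood at 9.08 CPM in U87MG control, 21.4 in U87MG shFLI1, 60.6 in U251MG control and 58.1 in U251MG shFLI1. *COL1A2* stood at 1331 CPM in U87MG control, 444 in U87MG shFLI1, 2138 in U251MG control and 1695 in U251MG shFLI1. In U87MG the pair went in opposite directions after knockdown, and in U251MG both were nearer to their control level.

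The *COL1A1* counts were 104 and 475 in U87MG control and shFLI1, and 1080 and 1741 in U251MG. Its log2 fold change, shFLI1 against control, was 1.22 in U87MG (95% counting interval 0.92 to 1.55), which is 2.35-fold higher. In U251MG its log2 fold change was -0.06 (-0.17 to 0.05), an interval that spans 0. The *COL1A2* counts were 15245 and 9880 in U87MG, and 38116 and 50769 in U251MG. For *COL1A2* the log2 fold change was -1.58 in U87MG (-1.62 to -1.55), which is 33.4% of the control level, and -0.33 in U251MG (-0.35 to -0.32). With *FLI1* lower in both cell lines, *COL1A1* was thus called higher in U87MG, *COL1A2* was called lower in U87MG, and neither was called in U251MG.

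No alternative scaling, prior count or measure gave *COL1A2* a positive log2 fold change in either cell line: its values ranged from -1.62 to -1.42 in U87MG and from -0.35 to -0.24 in U251MG. *COL1A1* in U87MG ranged from 0.85, on the log2(FPKM + 1) scale and not past the threshold used below, to 1.38. With 0.1 added to FPKM in place of 1, its U87MG value was past that threshold. In U251MG the *COL1A1* value took either sign, between -0.07 and 0.01. In the test of the effect shared by both cell lines (edgeR's quasi-likelihood test on all 4 libraries, blocked by cell line, with 1 residual degree of freedom, Benjamini-Hochberg adjustment over all genes), *COL1A1* had a log2 fold change of 0.49 with an adjusted p of 0.399. *COL1A2* had -0.97 with an adjusted p of 0.138, and neither passed the threshold of 0.05. Over 6 alternative fits the adjusted p ranged from 0.122 to 1.00 for *COL1A1* and from 1.29e-06 to 1.00 for *COL1A2*, which passed where genes with at least 1 count in any library were kept.

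The order of type I chains within a library was the same in all 4. On the per-length scale of FPKM, *COL1A2* exceeded *COL1A1* by 148-fold in U87MG control, 24.1-fold in U87MG shFLI1, 40.0-fold in U251MG control and 34.6-fold in U251MG shFLI1. *COL1A1* made up 0.678% of the type I counts in U87MG control (0.554% to 0.82%) and 4.59% in U87MG shFLI1 (4.19% to 5.01%). In U251MG the same share was 2.76% (2.60% to 2.92%) in control and 3.32% (3.16% to 3.47%) in shFLI1. A molecule of fibrillar type I collagen takes a pair of α1 chains and a single α2 chain, and the mRNA ratio in all 4 libraries lay on the other side.

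A gene was called within a cell line when its log2 fold change went past 1 in size and the counting interval left out 0, provided that 1 of its 2 libraries held 10 counts or more. In U87MG, 4 of 30 tested collagen genes were called higher in shFLI1 (*COL1A1*, *COL3A1*, *COL11A1* and *COL27A1*), where 7.21% of all 17355 tested genes were. In the same cell line 7 were called lower (*COL1A2*, *COL4A3*, *COL4A4*, *COL5A1*, *COL8A1*, *COL9A3* and *COL13A1*), where 4.19% of all tested genes were. The other 19 were not called. All 4 genes called higher encode fibrillar collagens, while those called lower came from 5 classes. Fibrillar genes were 9 of the 30 tested, and 2 of them were called lower. With total counts as the scaling, *COL14A1*, a fibril-associated collagen, was also called higher. The median log2 fold change of the 30 genes was -0.20, beside 0.06 over all genes tested in U87MG.

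In U251MG, 3 of 33 tested collagen genes were called higher (*COL6A3*, *COL9A3* and *COL28A1*), beside 4.17% of all 18222 tested genes. There, 2 were called lower (*COL8A1* and *COL11A1*), beside 4% of all tested genes, and 28 were not called. The median was -0.10, beside 0.04 over all genes. The summed level of all collagen genes was 4232 CPM in U87MG control, 4015 in U87MG shFLI1, 5799 in U251MG control and 4939 in U251MG shFLI1. *COL1A2* alone gave 31.5% of the collagen counts in U87MG control, 11.1% in U87MG shFLI1, 36.9% in U251MG control and 34.3% in U251MG shFLI1. Summing all RNAs of a gene mattered for the calls: on the leading RNA of each gene alone, *COL6A3*, *COL7A1*, *COL11A2* and *COL24A1* were also called in U87MG, and *COL4A3*, *COL5A3*, *COL13A1*, *COL17A1*, *COL19A1* and *COL24A1* in U251MG.

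**Figure D1:**
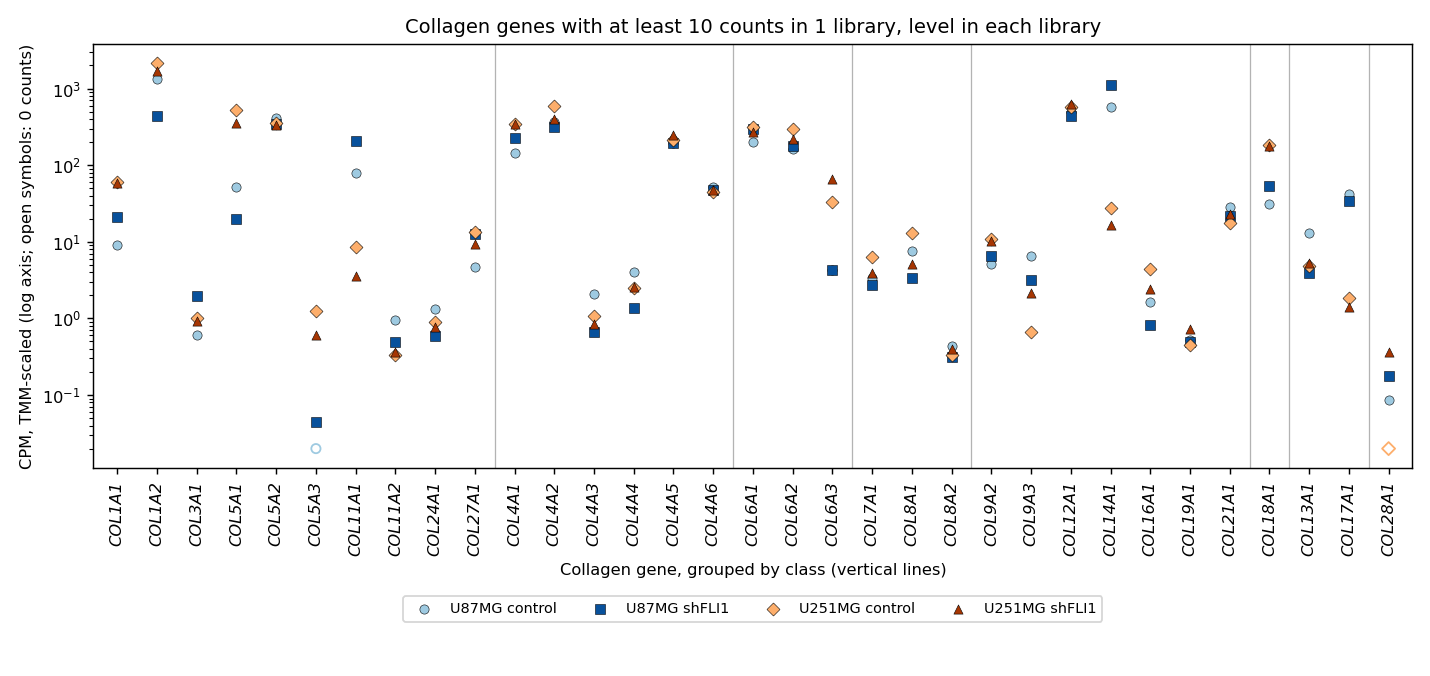
TMM-scaled CPM (log axis) of the 33 collagen genes with at least 10 counts in 1 library, with 1 symbol per library and vertical lines between classes; open symbols are libraries with 0 counts. COL1A2 reaches 2138 CPM in U251MG control, and COL11A1, COL14A1 and COL17A1 sit far higher in both U87MG libraries than in both U251MG libraries.

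**Figure D2:**
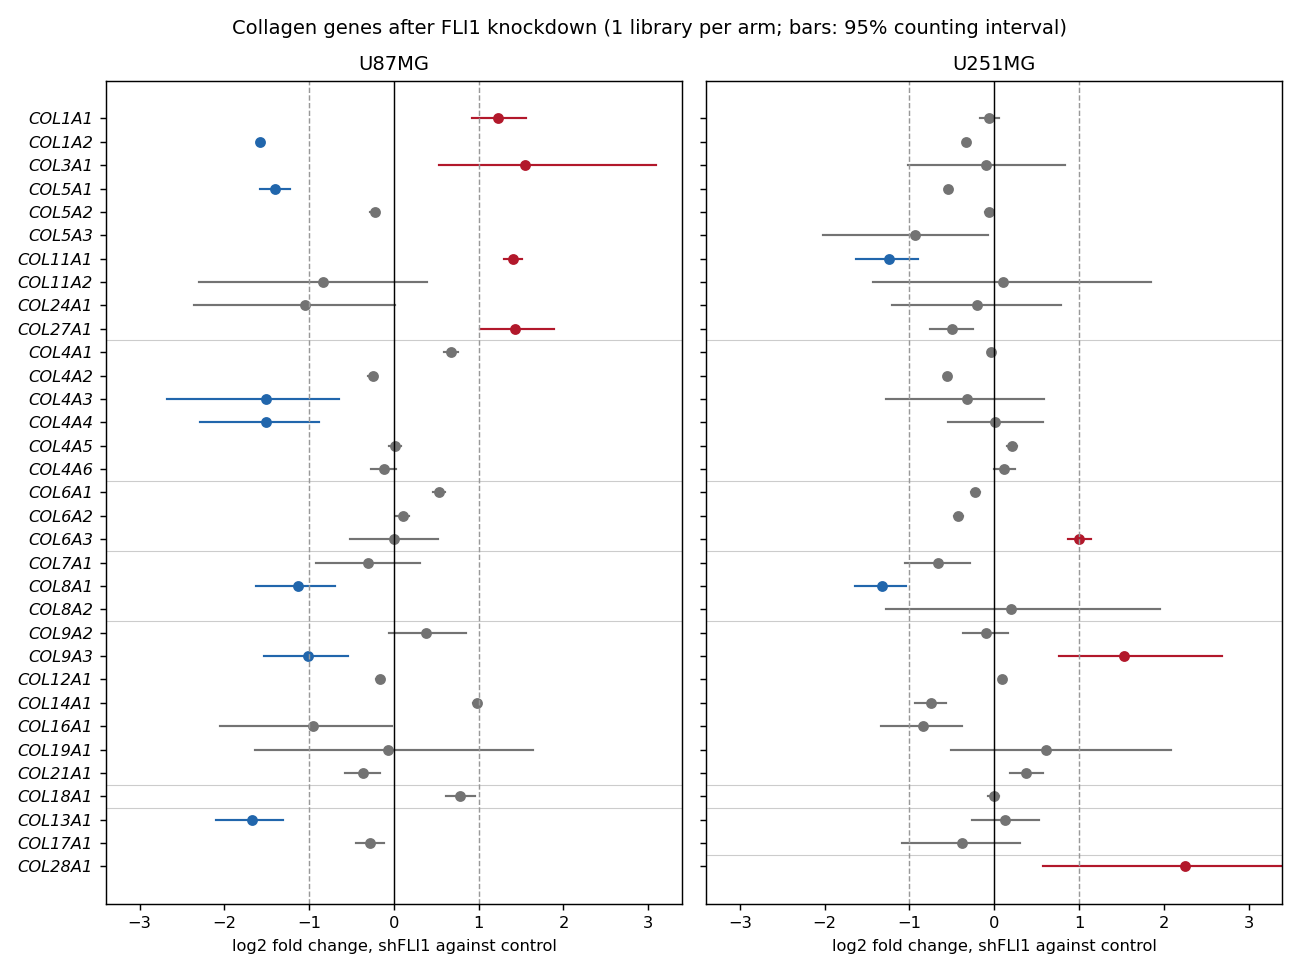
Log2 fold change, shFLI1 against control, of each collagen gene in U87MG (left) and U251MG (right), with 95% counting intervals as bars, 1 library per arm, red for called higher, blue for called lower and grey for not called; dashed lines mark a log2 fold change of 1 in either direction. COL8A1 is blue in both panels, and COL9A3 and COL11A1 change colour between them.

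The fibrillar class held 11 genes with rows, of which 10 reached 10 counts. *COL3A1*, the homotrimeric collagen of elastic tissues, was at 0.611 CPM in U87MG control, 1.98 in U87MG shFLI1, 1.01 in U251MG control and 0.935 in U251MG shFLI1. These levels rest on 7, 44, 18 and 28 counts. Its log2 fold change was 1.55 in U87MG (0.53 to 3.09) and -0.10 in U251MG (-1.02 to 0.83), so that *COL3A1* went past the threshold in U87MG with a wide interval and spanned 0 in U251MG.

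Type V collagen initiates fibrils and sits in their core. *COL5A1*, its α1 chain, was at 52.4 CPM in U87MG control, 19.8 in U87MG shFLI1, 523 in U251MG control and 360 in U251MG shFLI1. *COL5A2*, its α2 chain, was at 408, 349, 351 and 335 CPM in the same order, with U87MG control above the other 3. The log2 fold change of *COL5A1* was -1.40 in U87MG (-1.58 to -1.22) and -0.54 in U251MG (-0.58 to -0.50). *COL5A2* had -0.23 (-0.28 to -0.17) and -0.06 (-0.11 to -0.02). *COL5A3*, a chain of more restricted tissue range, had 0 and 1 counts in the U87MG libraries and 22 and 18 in the U251MG libraries, which allows up to 3 counts in U87MG control.

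The U87MG value of *COL5A1* depended on which RNAs were summed. Its leading RNA, NM_000093, went from 470 counts to 234 between U87MG control and shFLI1, and taken alone it gave a log2 fold change of -1.95. Another of its RNAs, URS0001BD1C4B, went from 15 counts to 159 in that cell line and had 0 in both U251MG libraries. On the authors' FPKM, summed over all RNAs, *COL5A1* was at 8.95 in U87MG control and 10.3 in U87MG shFLI1, and the log2 fold change was 0.19, so the direction turned with the measure. In U251MG the value stayed between -0.56 and -0.47.

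*COL11A1*, the α1 chain of type XI collagen known from cartilage fibrils and from invasive tumours, was the fibrillar gene that went past the threshold in opposite directions. It was at 78.4 CPM in U87MG control, 207 in U87MG shFLI1, 8.64 in U251MG control and 3.61 in U251MG shFLI1. Its log2 fold change was 1.40 in U87MG (1.3 to 1.51) and -1.24 in U251MG (-1.63 to -0.90). On the log2(FPKM + 1) scale the U251MG value was -0.46, which is not past the threshold. *COL11A2*, its partner chain, had 6 to 11 counts in every library, no stable direction in U87MG (2.59 on its leading RNA alone) and a log2 fold change of -0.84 (-2.30 to 0.39) in U87MG and 0.10 (-1.43 to 1.85) in U251MG.

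*COL27A1*, a fibrillar collagen of cartilage, was at 4.72 CPM in U87MG control, 12.8 in U87MG shFLI1, 13.4 in U251MG control and 9.38 in U251MG shFLI1. Its log2 fold change was 1.42 in U87MG (1.02 to 1.89) and -0.50 in U251MG (-0.76 to -0.25), with U87MG shFLI1 close to the U251MG control level. Taken on its leading RNA alone, *COL27A1* gave 0.84 in U87MG and was no longer called. *COL24A1*, a minor fibrillar collagen, had 13 to 23 counts in every library, and its U87MG log2 fold change of -1.04 had an interval of -2.36 to 0.01, which just spans 0. It was not called, but was with DESeq2 size factors and on its leading RNA alone (-1.77), while on the log2(FPKM + 1) scale it was 0.69.

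To show the sequence in front of fibrillar genes with values of opposite sign in U87MG, the 250 bases before the start of *COL11A1* and of *COL5A1* are printed here in the direction of the gene, from the RefSeq annotation of GRCh38.p14, with the ETS core GGAA or its reverse complement TTCC in capitals. The *COL11A1* window is chr1:103108523-103108772 on the minus strand and holds 0 copies. The *COL5A1* window is chr9:134641553-134641802 on the plus strand and holds 4. This pair was picked by its values, and the U87MG direction of *COL5A1* turned with the measure. The window of *COL27A1*, which was also called higher in U87MG, holds 4 copies. A link between copies and direction was not tested.
COL11A1 upstream: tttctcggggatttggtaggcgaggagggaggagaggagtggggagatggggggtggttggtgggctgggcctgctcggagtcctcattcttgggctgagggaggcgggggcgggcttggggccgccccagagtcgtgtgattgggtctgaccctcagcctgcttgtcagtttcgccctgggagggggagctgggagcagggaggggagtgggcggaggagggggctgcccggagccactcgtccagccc
COL5A1 upstream: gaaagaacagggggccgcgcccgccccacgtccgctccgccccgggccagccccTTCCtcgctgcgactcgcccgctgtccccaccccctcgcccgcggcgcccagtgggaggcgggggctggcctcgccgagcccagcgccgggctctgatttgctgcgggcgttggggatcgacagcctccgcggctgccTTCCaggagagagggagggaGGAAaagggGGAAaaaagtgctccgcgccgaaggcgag

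The type IV collagens had 6 genes, all measured, and they lie in head-to-head pairs that share the sequence between their starts. *COL4A1* and *COL4A2* make the widespread α1α1α2 basement membrane network. *COL4A1* was at 143 CPM in U87MG control, 229 in U87MG shFLI1, 348 in U251MG control and 340.3 in U251MG shFLI1. *COL4A2* was at 370, 310.5, 591 and 402 CPM in the same order. Both were among the most abundant collagen genes in all 4 libraries. The log2 fold change of *COL4A1* was 0.68 in U87MG (0.60 to 0.76) and -0.03 in U251MG (-0.08 to 0.01). *COL4A2* had -0.25 (-0.31 to -0.20) and -0.56 (-0.60 to -0.52), so none of the 4 values was past the threshold.

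In count shares, *COL4A1* made up 27.9% of the pair in U87MG control (26.7% to 29%) and 42.4% in U87MG shFLI1 (41.5% to 43.3%), and 37.1% in U251MG control (36.3% to 37.8%) and 45.9% in U251MG shFLI1 (45.2% to 46.5%). The 4 intervals did not overlap, and the share was higher in shFLI1 in both cell lines. The direction of *COL4A2* in U87MG turned with the measure, since its summed FPKM was 81.8 in control and 133 in shFLI1. In that measure the *COL4A2* level exceeded that of *COL4A1* in every library. The excess was 3.87-fold in U87MG control, 3.46-fold in U87MG shFLI1, 2.55-fold in U251MG control and 1.68-fold in U251MG shFLI1. The U87MG shift between the chains was thus smaller in FPKM than in counts.

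*COL4A5* and *COL4A6*, the chains of the α5α6 network, were not called in either cell line. *COL4A5* was at 193 CPM in U87MG control, 195 in U87MG shFLI1, 214 in U251MG control and 248 in U251MG shFLI1. *COL4A6* was at 51.3, 47.2, 44.1 and 47.9 CPM. The log2 fold changes after knockdown were 0.01 (-0.06 to 0.09) and 0.21 (0.15 to 0.27) for *COL4A5*, and -0.12 (-0.27 to 0.03) and 0.12 (-0.01 to 0.25) for *COL4A6*. On the leading RNA alone, *COL4A5* reached 0.73 in U251MG and *COL4A6* -0.73 in U87MG. *COL4A3* and *COL4A4*, chains of the glomerular basement membrane network, were near the detection limit, with 15 to 25 and 30 to 76 counts per library. The log2 fold change of *COL4A3* was -1.51 in U87MG (-2.67 to -0.65) and -0.32 in U251MG (-1.27 to 0.59). *COL4A4* had -1.51 in U87MG (-2.29 to -0.88) and 0.01 in U251MG (-0.54 to 0.57). Both U87MG calls were lost on the log2(FPKM + 1) scale (-0.18 and -0.46) and with a minimum of 100 counts. Their U87MG FPKM of 0.19 to 0.65 lay below the added 1, which draws such values towards 0. On the log2(FPKM + 0.1) scale *COL4A4* was called in U87MG and *COL4A3* was not. On the leading RNA alone, *COL4A4* was at -0.89 in U87MG and *COL4A3* at 2.61 in U251MG.

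The gap between the starts of *COL4A1* and *COL4A2* on chromosome 13 was 126 bases, that between *COL4A3* and *COL4A4* on chromosome 2 was 135 bases, and that between *COL4A5* and *COL4A6* on chromosome X was 379 bases. A pair of these stretches is printed because the genes on both sides share them, again in GRCh38.p14 with GGAA or TTCC in capitals. The whole gap chr13:110307158-110307283, read on the plus strand towards *COL4A2*, holds 0 copies. The 250 bases before *COL4A5*, chrX:108439588-108439837 on the plus strand, hold 8, the most among the collagen genes with such a window. The printed stretches differ in length. The 250 bases before *COL4A2*, which reach past the gap, hold 2 copies. Those before *COL4A3* and *COL4A4* hold 1 copy each.
COL4A1-COL4A2 gap: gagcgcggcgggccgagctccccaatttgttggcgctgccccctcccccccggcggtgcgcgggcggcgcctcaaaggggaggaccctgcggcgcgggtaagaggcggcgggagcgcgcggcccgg
COL4A5 upstream: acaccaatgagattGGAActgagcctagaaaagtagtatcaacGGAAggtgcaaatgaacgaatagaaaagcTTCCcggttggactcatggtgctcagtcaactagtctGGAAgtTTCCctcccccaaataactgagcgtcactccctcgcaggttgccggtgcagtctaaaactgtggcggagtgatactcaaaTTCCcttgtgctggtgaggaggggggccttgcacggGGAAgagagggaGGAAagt

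Type VI collagen links cells to the matrix through microfibrils of 3 chains. *COL6A1* was at 203 CPM in U87MG control, 294 in U87MG shFLI1, 316 in U251MG control and 271 in U251MG shFLI1. *COL6A2* was at 163, 175, 299 and 223 CPM. *COL6A3*, the large α3 chain, was at 4.28 and 4.27 CPM in the U87MG libraries and at 33.3 and 66.9 CPM in U251MG control and shFLI1. The *COL6A1* to *COL6A2* balance was close to even in FPKM, with ratios between 0.82 and 1.29, while *COL6A3* lay far below both.

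The log2 fold change of *COL6A1* was 0.53 in U87MG (0.46 to 0.60) and -0.22 in U251MG (-0.27 to -0.17). *COL6A2* had 0.10 (0.02 to 0.18) and -0.43 (-0.48 to -0.37), and neither gene was called. *COL6A3* had -0.0027 in U87MG (-0.51 to 0.53) and 1.00 in U251MG (0.87 to 1.14), a value just past the threshold that was lost with DESeq2 size factors. On its leading RNA alone the values were 2.89 and 1.45, both called. In FPKM, *COL6A1* exceeded *COL6A3* by 89.4-fold in U87MG control, 95.1-fold in U87MG shFLI1, 19.0-fold in U251MG control and 9.24-fold in U251MG shFLI1. The gap between these chains was therefore wider in both U87MG libraries.

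Among the anchoring fibril and short-chain network collagens, *COL8A1*, a chain of the hexagonal network of vessel walls and of the cornea, was the single collagen gene called the same way in both lines. It was at 7.51 CPM in U87MG control, 3.37 in U87MG shFLI1, 13.1 in U251MG control and 5.18 in U251MG shFLI1. The counts were 86, 75, 234 and 155, and in CPM both shFLI1 libraries lay below both controls. Its log2 fold change was -1.13 in U87MG (-1.62 to -0.69) and -1.33 in U251MG (-1.64 to -1.04). On the log2(FPKM + 1) scale the values were -0.57 and -0.67, and the U87MG call was also lost with total counts as the scaling.

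*COL7A1*, which forms the anchoring fibrils of the skin, was at 3.41 CPM in U87MG control, 2.74 in U87MG shFLI1, 6.28 in U251MG control and 3.94 in U251MG shFLI1. It had log2 fold changes of -0.30 (-0.92 to 0.31) and -0.66 (-1.06 to -0.29) and was not called. On the log2(FPKM + 1) scale the U251MG value was 0.33, and on its leading RNA alone the U87MG value was 4.76, so neither direction held. *COL8A2*, the partner of *COL8A1*, had 5 to 12 counts per library, was tested in U251MG alone and gave 0.20 (-1.27 to 1.95) there. At this depth no difference in *COL8A2* was detectable.

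The fibril-associated collagens had 9 genes with rows, of which 7 reached 10 counts. *COL12A1* and *COL14A1* bind the surface of type I fibrils. *COL12A1* was at 498 CPM in U87MG control, 443 in U87MG shFLI1, 580.5 in U251MG control and 620.1 in U251MG shFLI1. *COL14A1* was at 573, 1127, 28.0 and 16.6 CPM in the same order, so that both U87MG libraries lay far above both U251MG libraries. *COL12A1* had log2 fold changes of -0.17 (-0.21 to -0.12) and 0.10 (0.06 to 0.13). *COL14A1* had 0.97 in U87MG (0.94 to 1.01), just short of the threshold, and -0.75 in U251MG (-0.93 to -0.57).

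*COL14A1* passed the threshold in U87MG with total counts as the scaling and in FPKM, where it was the most abundant collagen gene of U87MG shFLI1 at 150 FPKM, beside 68.7 in U87MG control, 3.5 in U251MG control and 2.17 in U251MG shFLI1. In the other 3 libraries *COL1A2* held the first rank by FPKM, and in U87MG shFLI1 it was at rank 4 with 100.3 FPKM. *COL5A2* was at rank 2 or 3 in every library. These ranks are of levels per length and describe each library.

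*COL9A2* and *COL9A3* are chains of the cartilage collagen type IX. *COL9A2* was at 5.07 CPM in U87MG control, 6.61 in U87MG shFLI1, 10.9 in U251MG control and 10.2 in U251MG shFLI1. *COL9A3* was at 6.46, 3.15, 0.673 and 2.14 CPM in the same order, on 74, 70, 12 and 64 counts. The ordering of *COL9A3* was reversed between the cell lines, with shFLI1 below control in U87MG and above it in U251MG. *COL9A2* had log2 fold changes of 0.38 (-0.06 to 0.85) and -0.10 (-0.37 to 0.16), both spanning 0. *COL9A3* had -1.02 in U87MG (-1.53 to -0.55) and 1.54 in U251MG (0.76 to 2.69). The U87MG value was lost as a call with total counts, in FPKM and with the leading RNA alone, and the U251MG value was not called in FPKM.

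*COL16A1*, *COL19A1* and *COL21A1* are fibril-associated chains of lower level. *COL21A1* was at 28.4 CPM in U87MG control, 22.0 in U87MG shFLI1, 17.6 in U251MG control and 22.9 in U251MG shFLI1, with log2 fold changes of -0.37 (-0.57 to -0.16) and 0.38 (0.18 to 0.58). *COL16A1* was at 1.66, 0.809, 4.43 and 2.44 CPM, with -0.95 (-2.05 to -0.03) and -0.84 (-1.34 to -0.38). *COL19A1* had 6 to 22 counts per library and both its intervals spanned 0. None of the 3 was called. The U87MG values of *COL16A1* and *COL21A1* were positive on the log2(FPKM + 1) scale, at 1.58 and 0.29, so both directions turned with the measure.

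Of the transmembrane collagens, *COL13A1* and *COL17A1* reached 10 counts. *COL13A1*, which is found at cell-matrix contacts, was at 12.8 CPM in U87MG control, 3.96 in U87MG shFLI1, 4.77 in U251MG control and 5.21 in U251MG shFLI1. In CPM, U87MG control stood above the other 3 libraries, while in FPKM it was at 4.44 beside 4.07 in U251MG control. Its log2 fold change was -1.67 in U87MG (-2.10 to -1.31) and 0.13 in U251MG (-0.26 to 0.53). The U251MG value was -0.77 on the log2(FPKM + 1) scale and 3.80 on the leading RNA alone. *COL17A1*, the hemidesmosome collagen of epithelia, was at 41.7 and 34.2 CPM in the U87MG libraries and at 1.85 and 1.40 CPM in the U251MG libraries. It had log2 fold changes of -0.29 (-0.45 to -0.12) and -0.38 (-1.09 to 0.30).

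*COL18A1*, a multiplexin of basement membranes and the source of endostatin, was at 31.2 CPM in U87MG control, 53.7 in U87MG shFLI1, 181 in U251MG control and 180.5 in U251MG shFLI1. It had log2 fold changes of 0.78 (0.61 to 0.96) and -0.01 (-0.07 to 0.06) and was not called. *COL28A1* had 1 and 4 counts in the U87MG libraries and 0 and 11 in the U251MG libraries. Its log2 fold change in U251MG was 2.25, with a counting interval that began at 0.58 and had no upper limit. The call rests on 11 counts. Set against a floor of 3 counts for the control library, *COL28A1* was 2.18-fold higher in U251MG shFLI1. That value takes the 11 counts as exact and is not a lower limit. With *COL28A1* at the 2.18-fold value, the U251MG median over the collagen genes was still -0.10.

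The 8 genes below 10 counts in every library were *COL2A1*, the main collagen of cartilage, *COL6A6*, *COL15A1*, *COL20A1*, *COL22A1*, *COL23A1*, *COL25A1* and *COL26A1*. Their highest count was 6, for *COL2A1* in U251MG shFLI1. No difference between arms was detectable for them at this depth.

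Across the 30 collagen genes tested in both cell lines, 11 had log2 fold changes of the same sign and 19 of opposite sign. Over all 16384 genes tested in both, 10405 had the same sign and 5979 opposite signs. Some collagen values were very small, such as -0.0027 for *COL6A3* in U87MG and -0.0077 for *COL18A1* in U251MG, so the split depends on the scaling. With total counts, *COL18A1* had the same sign in both cell lines, while *COL5A2* had opposite signs. Pearson's r between the cell lines was -0.11 (Spearman's rho -0.05) over the 30 collagen genes, and 0.40 (0.38) over all genes. These are descriptions across genes that share the same 4 libraries, and genes are not independent replicates. No collagen gene was called higher in both cell lines, beside 0.8% of the genes tested in both, and *COL8A1* was called lower in both, beside 1.43%. *COL9A3* and *COL11A1* were called in opposite directions.

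**Figure D3:**
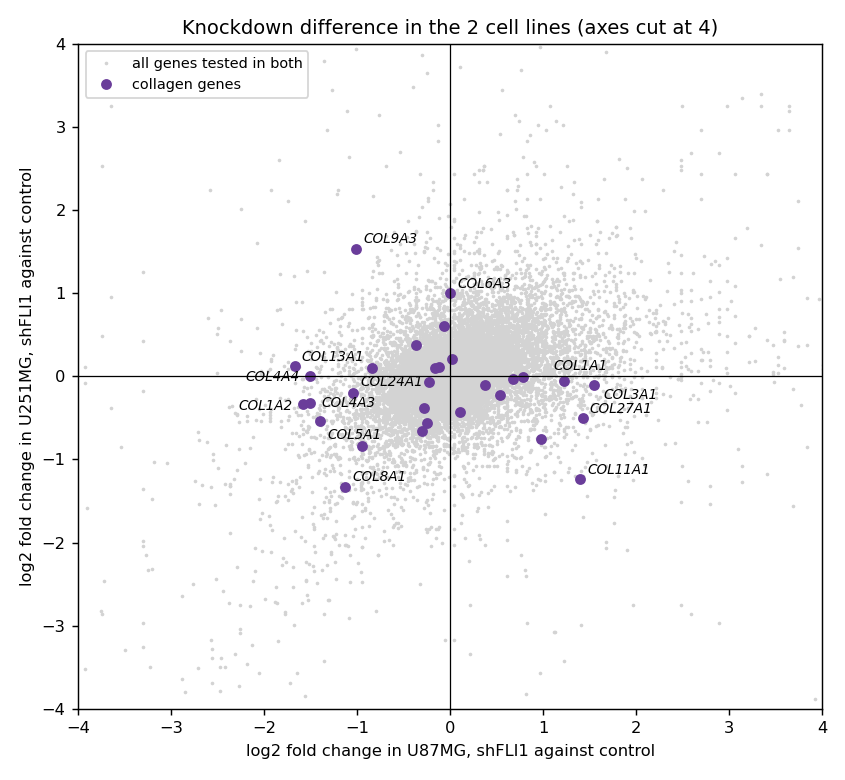
Log2 fold change, shFLI1 against control, in U87MG (horizontal) and U251MG (vertical) for the 30 collagen genes (purple) over the 16384 genes tested in both cell lines (grey), with collagen genes past 1 in size in either cell line named. COL8A1 lies in the lower left, COL11A1 in the lower right and COL9A3 in the upper left.

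The 95% counting intervals of the difference between cell lines, U251MG minus U87MG, are normal approximations. They left out 0 for most of the collagen genes tested in both cell lines. The share over all genes was not computed, and these intervals narrow as counts rise. *COL11A1* had a difference of -2.64 (-3.01 to -2.27) and *COL9A3* of 2.55 (1.54 to 3.56). For type I collagen the difference was -1.28 (-1.61 to -0.96) for *COL1A1* and 1.25 (1.21 to 1.29) for *COL1A2*. *COL8A1* had a difference of -0.19 (-0.73 to 0.34), which spans 0. With 1 library per arm these intervals do not hold the spread between cultures, and the interaction of knockdown and cell line could not be tested.

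In the fit of the effect shared by both cell lines, 31 collagen genes were tested. *COL8A1* was the 1 that passed, with a log2 fold change of -1.27 and an adjusted p of 0.0258 by edgeR's quasi-likelihood test; 2.14% of all 16649 genes were lower and 0.931% were higher in this test. Over 5 alternative fits its adjusted p ranged from 5.78e-05 to 1.00, the highest without the cell line block. DESeq2 gave *COL8A1* 0.0898. *COL5A1* came next, with -0.96 and an adjusted p of 0.0521, and DESeq2 gave it 0.0015, within a range of 2.14e-06 to 1.00 over 6 alternatives. At an unadjusted p under 0.05 in edgeR's quasi-likelihood test there were 6 of the 31 collagen genes, beside 2753 of all 16649 genes. The 6 were *COL1A2*, *COL4A2*, *COL5A1*, *COL6A3*, *COL8A1* and *COL16A1*. Of the 6, *COL6A3* alone had a positive log2 fold change, 0.64.

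More collagen genes passed the test for the cell line than for the knockdown. In the same fit, 9 collagen genes were higher in U251MG (*COL1A1*, *COL1A2*, *COL4A1*, *COL5A1*, *COL5A3*, *COL6A3*, *COL9A2*, *COL16A1* and *COL18A1*), beside 10.4% of all genes, and 3 were lower in U251MG (*COL11A1*, *COL14A1* and *COL17A1*), beside 8.26%. The libraries of a cell line share their source, so these p-values cover the spread of these 4 libraries. *COL5A1* had a log2 difference, U251MG minus U87MG, of 3.68 (edgeR adjusted p = 3.14e-05). *COL6A3* had 3.46 (7.11e-05) and *COL18A1* had 2.06 (0.000271).

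On the U87MG side, *COL14A1* had -5.29 (edgeR adjusted p = 7.90e-05), *COL17A1* had -4.62 (8.84e-06) and *COL11A1* had -4.58 (0.000744). For type I collagen the difference was 1.96 for *COL1A1* (0.00177) and 1.24 for *COL1A2* (0.0223). Between the control libraries alone, *COL5A1* was 9.99-fold higher in U251MG, and *COL17A1* was 22.5-fold and *COL14A1* 20.5-fold higher in U87MG. Genes of 1 fibril class thus stood on both sides, with *COL1A1* and *COL5A1* higher in U251MG and *COL11A1* higher in U87MG.

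**Figure D4:**
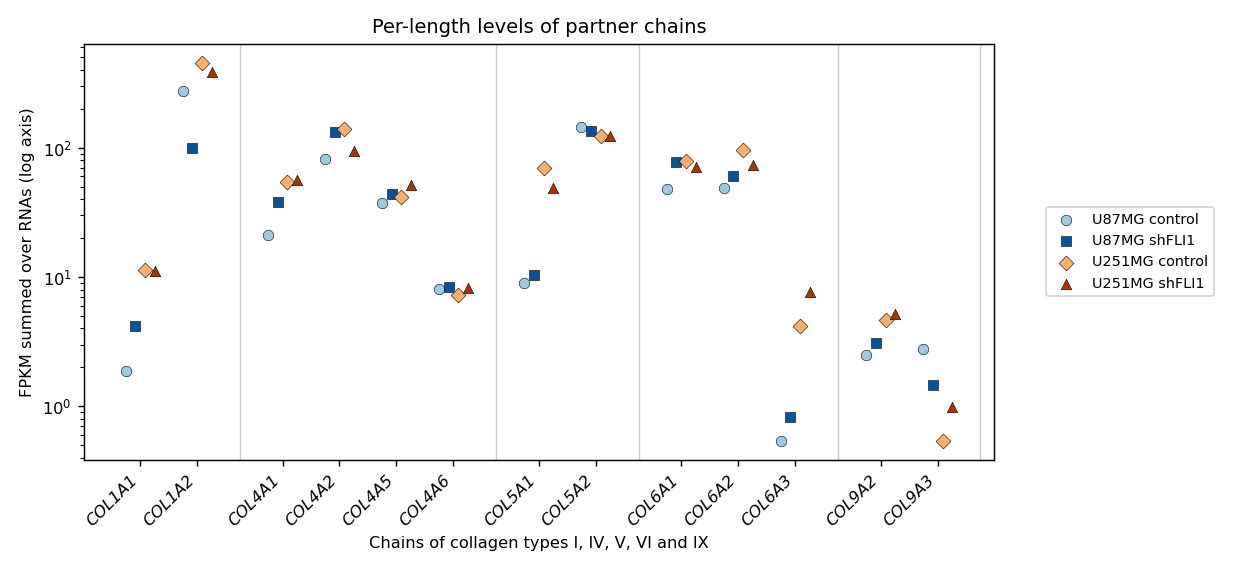
FPKM (log axis, summed over the RNAs of a gene) of chains of collagen types I, IV, V, VI and IX, with 1 symbol per library. COL1A2 lies above COL1A1 in every library, by 24.1-fold in U87MG shFLI1 and 148-fold in U87MG control, while COL6A1 and COL6A2 lie close together.

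Per length, the chains of type V were also uneven. *COL5A2* exceeded *COL5A1* by 16.1-fold in U87MG control, 13-fold in U87MG shFLI1, 1.78-fold in U251MG control and 2.51-fold in U251MG shFLI1. In counts, the *COL5A1* share of this pair was 11.4% in U87MG control (10.5% to 12.3%) and 5.38% in U87MG shFLI1 (4.90% to 5.89%). The direction of the U87MG shift thus turned with the measure. In FPKM, *COL4A5* exceeded *COL4A6* by between 4.62-fold and 6.20-fold, a ratio that moved little across the libraries. *COL9A2* made up 43.9% of the type IX counts of this pair in U87MG control (35.3% to 52.8%) and 67.7% in U87MG shFLI1 (61.1% to 73.9%). In U251MG the *COL9A2* share was 94.2% in control (90.1% to 97.0%) and 82.7% in shFLI1 (78.4% to 86.4%). *COL3A1* and *COL5A2*, neighbours on chromosome 2 with 19151 bases between them, differed by 264-fold to 1308-fold in FPKM, with *COL5A2* above.

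GGAA was searched on both strands in the 250 bases before each annotated start of RefSeq. Windows were found for 32 of the 44 collagen genes (44 windows), and GGAA was present in 90.9% of these windows and in 92.7% of all 35116 windows, with a median of 3 copies in both. The longer letters CCGGAAG were in 0 of the 44 collagen windows and in 8.52% of all windows, and GGAAGGAA in 0 and in 3.06%; copies of both overlap GGAA. Such a match is a description of letters. *COL1A1*, *COL1A2*, *COL2A1*, *COL3A1*, *COL5A2*, *COL6A1*, *COL6A5*, *COL8A1*, *COL9A3*, *COL14A1*, *COL20A1* and *COL22A1* had no window.

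Collagen chains are hydroxylated, glycosylated and folded in the endoplasmic reticulum, secreted, trimmed and cross-linked. Lists of 61 such genes and of collagen receptors and transcription factors that act on *COL1A2* were examined with the same rules, and 57 had rows. In U87MG, 1 of 49 tested genes was called higher (*TLL2*, a procollagen proteinase) and 2 lower (*LOXL3*, a cross-linking oxidase, and *FLI1* itself). *TLL2* and *LOXL3* are named after their values were seen. The U87MG control and shFLI1 libraries held 4 and 27 counts of *TLL2*, and 41 and 25 of *LOXL3*. In FPKM, *LOXL3* was at 1.21 in U87MG control and 2.4 in U87MG shFLI1, so its direction turned with the measure. In U251MG, 1 of 49 was called, *FLI1*. Over all genes tested in U87MG, 7.21% were called higher and 4.19% were called lower. For U251MG these shares were 4.17% and 4%. The medians were -0.22 in U87MG and -0.14 in U251MG, beside 0.06 and 0.04 over all genes.

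Of the 17 tested hydroxylases, glycosyltransferases and folding factors, 0 were called in either cell line. The 3 with the most counts were *P4HB*, a subunit of prolyl 4-hydroxylase, with log2 fold changes of 0.20 and -0.08 in U87MG and U251MG, *COLGALT1*, which adds galactose, with -0.21 and -0.15, and *PLOD1*, a lysyl hydroxylase, with -0.52 and -0.13. *SERPINH1*, the collagen chaperone HSP47, was chosen after its values were seen: it was the 1 gene of the lists other than *FLI1* that passed the shared test, with a log2 fold change of -0.73 and an adjusted p of 0.0439 by edgeR's quasi-likelihood test. Its counts were 1180 and 1208 in the U87MG libraries and 2289 and 2713 in the U251MG libraries, and its own log2 fold changes were -0.92 and -0.50.

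The cross-linking oxidases had negative values in 4 of 5 genes in U87MG and in 5 of 5 in U251MG. Over all tested genes, 7707 of 17355 were negative in U87MG and 8302 of 18222 in U251MG. By FPKM, *LOXL3* was higher in shFLI1 in both cell lines, and *LOXL1* was higher in U87MG shFLI1. *LOXL2* had -0.60 and -0.22, *LOXL1* had -0.06 and -0.82, and *LOX* had -0.89 and -0.56. None of these 3 was called, and none of the 5 passed the shared test (lowest adjusted p 0.0594 by edgeR, for *LOX*). The secretion factors, with *SEC23A* at -0.03 and 0.01, *MIA3* at 0.32 and 0.25 and *SEC24D* at -0.39 and -0.36, had 0 calls in either cell line. Among the procollagen proteinases and their enhancers, *BMP1* had -0.31 and -0.22, *PCOLCE2* had -0.33 and 0.01, and *ADAMTS3* had 0.28 and -0.14.

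*BGN*, biglycan, was the 1 fibril-binding small proteoglycan with 10 counts, at -0.59 and -0.76. The collagen receptors *DDR1* (-0.22 and 0.47), *MRC2* (0.08 and -0.21) and *ADGRG1* (-0.80 and -0.27) were not called. Of the transcription factors other than *FLI1*, *YBX1* had -0.01 and 0.45, *SMAD3* had 0.19 and 0.01, and *SP1* had -0.19 and -0.07. The machinery that makes collagen thus held fewer calls than the collagen genes in both cell lines, though with no test of that difference.

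**Figure D5:**
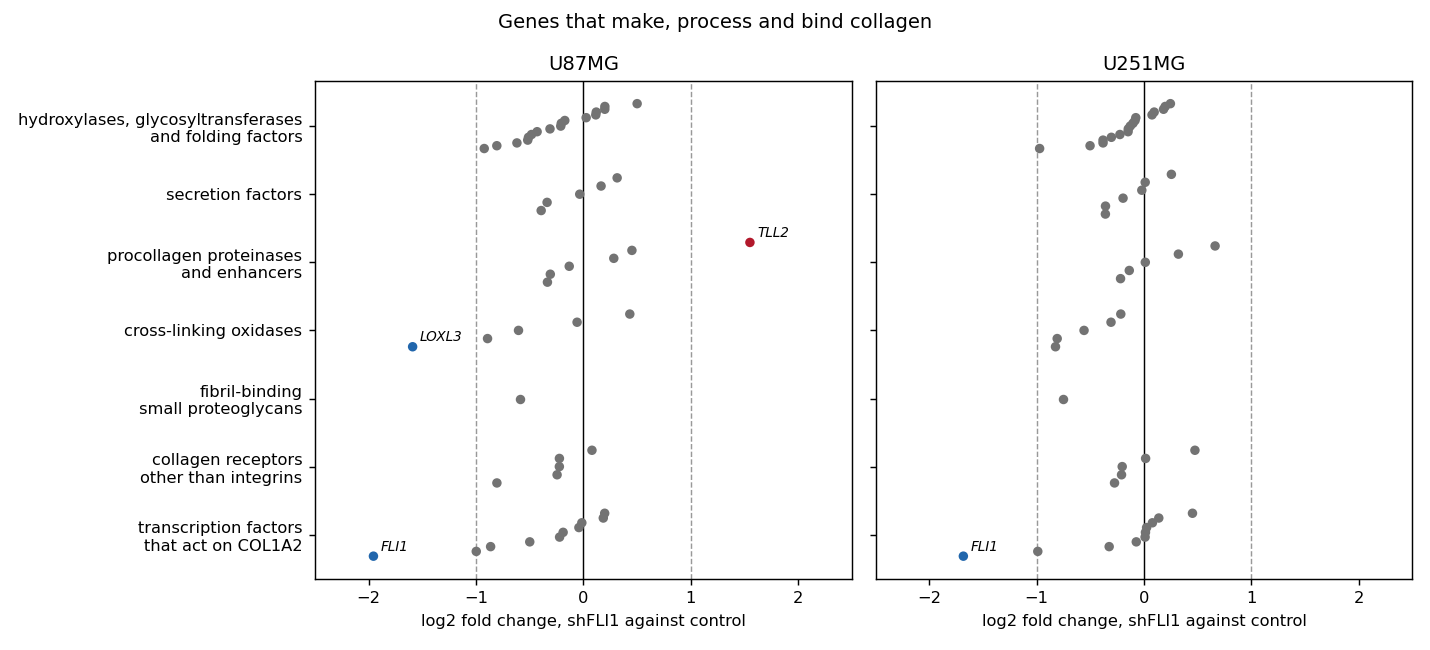
Log2 fold change, shFLI1 against control, of genes that make, process, bind or control collagen, 1 point per tested gene and 1 row per list, in U87MG (left) and U251MG (right), with called genes coloured and named and dashed lines at a log2 fold change of 1 in either direction. FLI1 is called lower in both panels, and TLL2 and LOXL3 are called in U87MG alone.

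Markers of other cells that make collagen were examined beside these values. The summed level of 7 fibroblast and mural markers with rows was 190 CPM in U87MG control, 173 in U87MG shFLI1, 320 in U251MG control and 240 in U251MG shFLI1, of which 6 reached 10 counts. *DCN*, a defining fibroblast marker, had 1 or 0 counts in every library. *THY1* and *PDGFRA* held the highest levels of the list, at 67.6 to 172 and 76.0 to 107 CPM. In U87MG and U251MG their log2 fold changes were -0.23 and -0.42 for *THY1* and 0.05 and -0.27 for *PDGFRA*. The list did not move one way: in U87MG and U251MG, *ACTA2* had log2 fold changes of -1.08 and -2.15, both called lower, *TAGLN* had 1.74, called higher, and 0.57, *PDGFRB* had -1.67, called lower, and -0.08, and *RGS5* had -0.02 and -0.08. In FPKM, *PDGFRB* was at 0.6 in U87MG control and 0.86 in U87MG shFLI1, so its direction there turned with the measure. The 7 glial and glioma markers summed to between 5631 and 9188 CPM, led by *VIM* and *CD44*, while *OLIG2* had 0 to 2 counts. *GFAP*, the astrocyte filament, was called higher in both, with 1.32 and 2.19. The endothelial markers summed to between 7.68 and 16.2 CPM, with *PECAM1* at 0 to 3 counts. *KDR* had 109 to 410 counts per library, with log2 fold changes of -1.06 in U87MG, called lower, and 0.99 in U251MG. *CDH5* had 51 and 50 counts in the U87MG libraries and 6 and 10 in the U251MG libraries. The immune markers summed to between 1.3 and 9.87 CPM, with *PTPRC* at 0 to 5 counts and *CD68* called lower in both, at -2.72 and -4.03. The part of these markers in the collagen values was not tested. Less of a gene per cell and fewer cells that express it cannot be told apart in bulk RNA.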

How the data were processed

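RNA-seq data of 4 libraries were used, grouped by the labels of cell line and vector. Per the labels and the study's methods, the authors sequenced mRNA, aligned reads with HISAT2 to GRCh38 (GRCh38.p13 in the submitters' processing notes) and computed FPKM with StringTie. The deposited table gives, per RNA, an estimated count that is not normalized, and the authors' FPKM. The tool behind the counts and the strandedness are not given in the sources used here. Estimated counts can be split between the RNAs of a gene and between overlapping genes. TPM and averaged columns (10) and 31346 circular RNAs were not used.

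The estimated counts of 185042 linear RNAs were added up by gene identifier (46660 in all) and rounded to whole numbers. Of 24411 Entrez identifiers, 23775 had a symbol in RefSeq. CPM was scaled by TMM, and a prior count of 2 entered the log2 fold changes. Genes were called as stated in the report. edgeR's quasi-likelihood test (edgeR 4.0.16, R 4.3.3) kept genes by filterByExpr. DESeq2 1.42.0 was an alternative, and Python 3.11.15 was used for tables and sequences. Beyond *FLI1*, the pathway genes named were those called the same way in both lines and the 3 with the most counts of each list, with exceptions marked. Scripts were tested on simulated data. The members and lists were chosen with earlier results of these data known. Libraries held 12229779 to 28891055 counts, PCR reads are not independent molecules, and intervals and floors cover counting error only. Alternatives covered scaling, prior count, count minimum, fold threshold, FPKM, the leading RNA alone and other fits.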

Additional observations from a re-analysis of the deposited data

Results flagged for a closer look

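*COL9A3* and *COL11A1* stand out because both were past the threshold in opposite directions in the 2 cell lines. The log2 fold change of *COL9A3* was -1.02 in U87MG, against 1.54 in U251MG. For *COL11A1* it was 1.40 in U87MG, against -1.24 in U251MG. The difference between the cell lines was not tested, since 1 library per arm leaves no residual degrees of freedom for an interaction.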

How the results depend on the processing

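The numbers of calls moved with the settings. In U87MG 11 collagen genes were called, and 6 with at least 100 counts in 1 library or on the log2(FPKM + 1) scale. In U251MG 5 were called, 3 with at least 100 counts, 9 at a 1.5-fold threshold, 0 and 2 on the log2(FPKM + 1) and log2(FPKM + 0.1) scales, and 10 with the leading RNA of each gene alone, an alternative chosen after seeing the data. Calls that went the same way in both lines numbered 1, and 0 with total counts, with at least 100 counts and on the log2(FPKM + 1) scale, 2 at 1.5-fold and 2 with the leading RNA. Pathway calls numbered 3 in U87MG, 1 with at least 100 counts, 12 at 1.5-fold and 1 on the log2(FPKM + 1) scale; 1 in U251MG, 2 with DESeq2 size factors or a prior count of 0.25 and 6 at 1.5-fold; and 1 in both, 2 under the same 2 settings and 4 at 1.5-fold.

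The U87MG collagen median of -0.20 was -0.035 with total counts (where the median of all genes moved from 0.06 to 0.22), 0.014 with at least 100 counts and 0.23 on the log2(FPKM + 1) scale; the U251MG median was -0.00012 on that scale. *COL1A1* in U87MG was 0.85 on that scale. *COL1A2* was -1.42 and -0.26 with total counts and -1.45 and -0.24 on that scale, in U87MG and U251MG. *COL5A1* in U87MG reversed, to 0.19, on that scale. The shared test passed 1 collagen gene, and 2 with DESeq2 size factors, 0 with total counts, 4 with at least 1 count in any library and 0 without the cell line block. With DESeq2 it passed *COL5A1* in place of *COL8A1*. The cell line term passed 12, and 8 both with DESeq2 and where every library held 100 counts or more. Of 295 alternative values of single log2 fold changes of the other collagen genes, 210 lay within the counting interval and the others outside it; 31 had the other sign, of which the *COL5A1* value belonged to a called gene, and 14 of the 31 were in FPKM. The causes were not tested.

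The labels carry no replicate numbers, so the cell line block, which pairs control and shFLI1 within each line, was the paired fit. With 1 library per group, none was left out. Depth limits genes with few counts, as for *COL3A1* in U87MG, whose interval ran from 0.53 to 3.09.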
